A study of Mus musculus with 24 samples.

Results

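Bone marrow-derived macrophages were exposed to 4-hydroxyestrone (4-OHE1), a catechol metabolite of the estrogen estrone, and their messenger RNA was sequenced after 6 h and after 24 h. The comparison described here sets the 3 libraries with 4-OHE1 at 24 h against the 3 with 4-OHE1 at 6 h, which is 6 of the 24 libraries of the series. It asks which stress genes were early and which were late. The macrophages were grown for 7 days in 20 ng/mL M-CSF, a macrophage growth factor, from marrow of female C57BL/6J mice aged 8 weeks. Replated cells then received ethanol vehicle (control), 4-OHE1 in ethanol, the bacterial product LPS, or 4-OHE1 together with LPS, each for 6 h or 24 h and each in 3 libraries. The vehicle libraries of both times and the libraries with LPS plus 4-OHE1 serve here as reference. No genetic change was made in any group. Genes were joined between the 6 h and the 24 h table by symbol, which left 23423 of 24537 genes whose transcript was the same in both and dropped 1114. Of these, 10413 genes reached 1 FPKM (reads per kilobase of transcript, scaled to the reads of the library) in at least 3 of the 6 libraries and were tested.

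Catechol estrogens can be oxidised to quinones, which react with the thiols of glutathione and proteins. Such electrophiles free the transcription factor NRF2 from its inhibitor KEAP1, and NRF2 then drives genes of glutathione synthesis, quinone reduction, thioredoxin reduction and heme breakdown. Damaged proteins release the heat shock factor HSF1, which drives cytosolic chaperones. Kinases that sense amino acid shortage, heme or misfolded protein phosphorylate the translation factor eIF2 alpha and favour translation of ATF4, the factor of the integrated stress response. Misfolded protein in the endoplasmic reticulum (ER) also activates ATF6 and XBP1, which drive ER chaperones. In macrophages these programmes run beside the inflammatory and growth programmes set by LPS and by M-CSF.

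Depth was 8127155 to 9481053 reads in the 4-OHE1 libraries of 6 h and 11458036 to 12238808 in those of 24 h. The first principal component of the 6 libraries compared held 81.3% of the variance and put the 6 h libraries at -37.4 to -33.2 and the 24 h libraries at 33.1 to 37.1. The labels do not say whether replicate libraries came from separate cultures or animals, so the p-values rest on a spread between libraries that may be technical. The times also came in separate tables, and time and a difference in handling between the 2 harvests cannot be told apart from the 4-OHE1 libraries alone. For that reason the change of the vehicle libraries between the times is given beside the result. Markers of the labelled cell type were abundant, and the summed FPKM of 21 macrophage markers was 8691 to 9545 with 4-OHE1 at 6 h and 10532 to 11088 at 24 h, against 7537 to 8462 and 8286 to 9010 with vehicle. By gene, 6 of 20 tested markers were higher and 9 lower than vehicle at 6 h, and 6 and 10 at 24 h. Of 9 lymphocyte and 7 erythroid markers, 0 passed the filter. Neutrophil markers summed to 13 to 16 FPKM at 6 h and 18 to 23 FPKM at 24 h with 4-OHE1. Osteoclast markers summed to 52 to 57 FPKM at 6 h and 39 to 40 at 24 h with 4-OHE1. With vehicle they summed to 43 to 45 and 42 to 43. Dendritic cell markers summed to 11 to 14 FPKM at 6 h and 9 to 11 at 24 h with 4-OHE1. Stromal markers reached at most 4.5 FPKM with 4-OHE1, and mast cell markers 2.5.

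With 4-OHE1, 3245 genes were higher and 3313 lower at 24 h than at 6 h, by limma at a Benjamini-Hochberg adjusted p under 0.05, which is 31.2% and 31.8% of the genes tested. The median size of a called change was 0.58 on the log2 scale. At least 2-fold changes were fewer, with 498 genes higher (4.78%) and 785 lower (7.54%). With vehicle the same interval brought 590 higher and 301 lower genes (5.70% and 2.91% of 10351), of which 14 and 4 changed at least 2-fold (0.135% and 0.0386%). These vehicle counts were unstable, at 257 and 119 without replicate 1 of 24 h, 266 and 122 without replicate 2 and 307 and 148 without replicate 3, and at 300 and 125 without replicate 1 of 6 h. Tested directly over 12 libraries, the time change differed between 4-OHE1 and vehicle in 2627 genes in the higher direction (24.3% of 10798) and in 3136 in the lower direction (29.0%). The values are log2 differences of scaled FPKM plus 0.5, with each library scaled by the median of its ratios to all others. Without that scaling the median gene stood 0.21 higher at 24 h, 4777 genes were called higher and 2274 lower, and the share of higher genes among those called went from 49.5% to 67.7%. Under both scalings, 3245 of the 3245 higher and 2274 of the 3313 lower genes kept their call and direction, and 0 were called in opposite directions. Changes below are relative to the median gene, and each list's counts without scaling stand beside its main counts.

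Gene lists are set beside these backgrounds and a median of 0.01 over all tested genes. The lists and their members were chosen with earlier results of these data known. A list's excess over the background therefore describes its members and is no test. A gene can stand in more than 1 list. Library values are FPKM on a scale shared by the 12 vehicle and 4-OHE1 libraries, and the fitted changes, from the 6 libraries compared, can differ from ratios of these levels by about 0.03 on the log2 scale. The 3 libraries of each time did not overlap in 7161 of the tested genes (68.8%), so non-overlap alone sets no gene apart here.

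**Figure D1:**
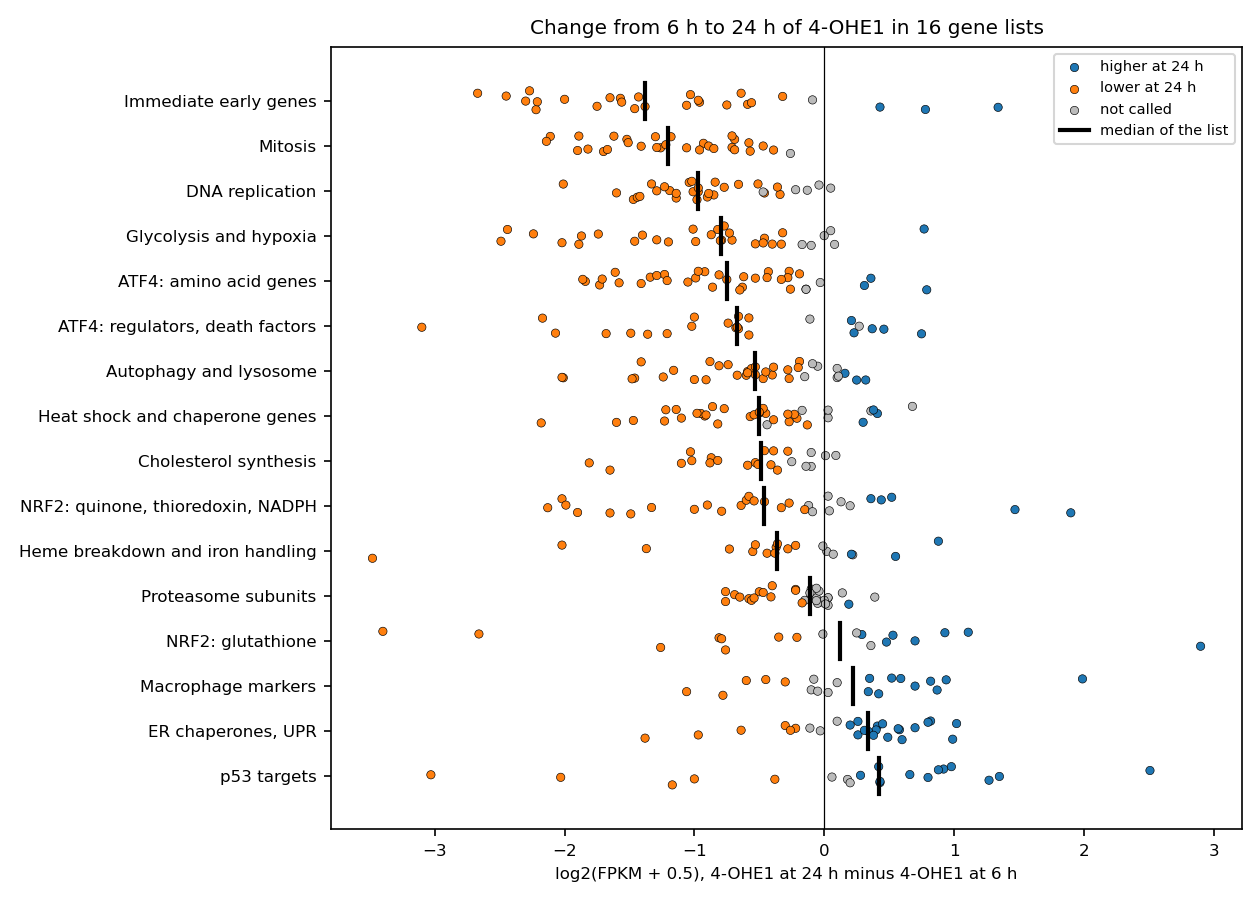
Change from 6 h to 24 h of 4-OHE1 for the tested members of 16 gene lists. The x axis is the log2 difference of scaled FPKM plus 0.5, each point is a gene, blue and orange points passed the test in the higher and lower direction, grey points did not, and the black bar is the list's median, from -1.38 for immediate early genes to 0.43 for p53 targets.

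The NRF2 genes split by time. Glutathione synthesis and cystine import were highest at 6 h, whereas several conjugating and quinone-reducing enzymes were highest at 24 h. Of 18 tested glutathione genes (24 listed), 7 were higher and 8 lower at 24 h, with a median of 0.12 and with 9 and 6 called without scaling. Against vehicle of the same time, 13 were higher and 1 lower at 6 h (33.5% and 33.2% of all genes were called in these directions), and 16 were higher and 0 lower at 24 h (28.6% and 27.8% of all genes). Without scaling, these counts were 11 and 1, and 16 and 0. The median gene then stood at -0.22 against vehicle at 6 h and at 0.05 at 24 h. Of all 10798 genes, 2347 were then called higher and 5165 lower at 6 h, and 3382 and 2745 at 24 h.

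Gclc encodes the catalytic subunit of glutamate-cysteine ligase, the rate-limiting enzyme of glutathione synthesis. Its FPKM was 397, 374 and 411 at 6 h and 35.03, 39.3 and 33.9 at 24 h, against 39.8 ± 1.07 and 32.2 ± 0.365 with vehicle (mean ± SD, n = 3). The 24 h libraries thus lay close to vehicle, and the fitted change was -3.40, SE 0.07, adjusted p = 1.01e-07. Gclm, the modifier subunit of the same enzyme, stood at 524, 497 and 517 and then at 208, 224 and 196, with vehicle at 199 ± 11.3 and 136 ± 2.26. It fell by less than Gclc (-1.26, adjusted p = 1.17e-06). Slc7a11, the cystine importer, was measured at 90.3, 94.98 and 99.2 and later at 14.6, 13.8 and 14.2, and vehicle libraries held 2.15 ± 0.130 and 1.07 ± 0.219. It had fallen (-2.66, adjusted p = 1.01e-07) but was still 3.24 above vehicle on the log2 scale at 24 h. Gss, glutathione synthetase, fell from 75.1 ± 3.30 to 43.5 ± 4.45 FPKM (-0.76) and was 2.55 above vehicle at 24 h.

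The late members were different enzymes. Mgst2, a microsomal glutathione transferase, stood at 8.63, 8.21 and 5.48 FPKM at 6 h, in the range of vehicle (7.75 ± 1.16), and at 58.2, 64.1 and 49.4 at 24 h, against 6.87 ± 1.94 with vehicle. All 3 libraries of 24 h were above all others, and the change was 2.90, SE 0.16, adjusted p = 2.62e-06. Gsta4, which conjugates lipid aldehydes, rose from 1.79 ± 0.730 to 4.20 ± 0.359 (1.11, adjusted p = 0.00295) with vehicle at 0.139 ± 0.122 and 0.0952 ± 0.0890. Gpx1, a glutathione peroxidase, was below vehicle at 6 h (-0.38) and rose by 0.93 to 0.25 above vehicle at 24 h. Mgst1 rose by 0.53 (adjusted p = 8.53e-05).

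Among 29 tested genes of quinone reduction, thioredoxin and NADPH supply (30 listed), 5 were higher and 18 lower at 24 h, with a median of -0.46, and 9 and 15 were called without scaling. Against vehicle, 27 were higher and 2 lower at 6 h, and 22 and 2 at 24 h. Nqo1, which reduces quinones directly to hydroquinones, had FPKM of 84.8, 70.7 and 73.7 at 6 h and 218, 218 and 187 at 24 h. Vehicle libraries moved the other way, from 40.6 ± 3.56 to 25.8 ± 0.670. The change with 4-OHE1 was 1.47, SE 0.09, adjusted p = 3.39e-06, and it exceeded that of vehicle by 2.08 (adjusted p = 3.56e-08). Ephx1, microsomal epoxide hydrolase, rose by 1.90 with 4-OHE1, beside 0.94 with vehicle. G6pdx, the enzyme that opens the pentose phosphate pathway for NADPH, rose by 0.44 while it fell by 0.28 with vehicle.

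Srxn1 and Txnrd1 were early. Srxn1, the sulfiredoxin that repairs overoxidised peroxiredoxins, stood at 976, 936 and 945 and then at 209, 239 and 192 FPKM, with vehicle at 119 ± 3.67 and 76.1 ± 2.06. It fell by 2.13 on the log2 scale (SE 0.08, adjusted p = 3.86e-07) and stayed 1.48 above vehicle. Txnrd1, thioredoxin reductase, fell from 630.0 ± 18.8 to 155 ± 6.19 (-1.99) and was 0.17 above vehicle at 24 h. Nfe2l2, the gene of NRF2 itself, fell by 1.33, and Bach1, its competitor at antioxidant elements, fell by 1.49. Their levels at 24 h did not pass the test against vehicle (0.09, adjusted p = 0.114, and 0.10, adjusted p = 0.16). Mafk, a small partner of NRF2, fell by 1.90, and the NRF2 target Osgin1 by 1.65. Prdx1, an abundant peroxiredoxin, was at 2198, 2138 and 1989 FPKM at 6 h and 2001, 1911 and 1901 at 24 h, and vehicle at 609 ± 31.5 and 477 ± 20.9. The groups overlapped and the time change of Prdx1 did not pass the test (-0.09, adjusted p = 0.213, 0.12 without scaling). Ptgr1, a reductase of alkenals, likewise gave 0.04 (adjusted p = 0.663), at 1.99 above vehicle at 6 h and 1.96 at 24 h.

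**Figure D2:**
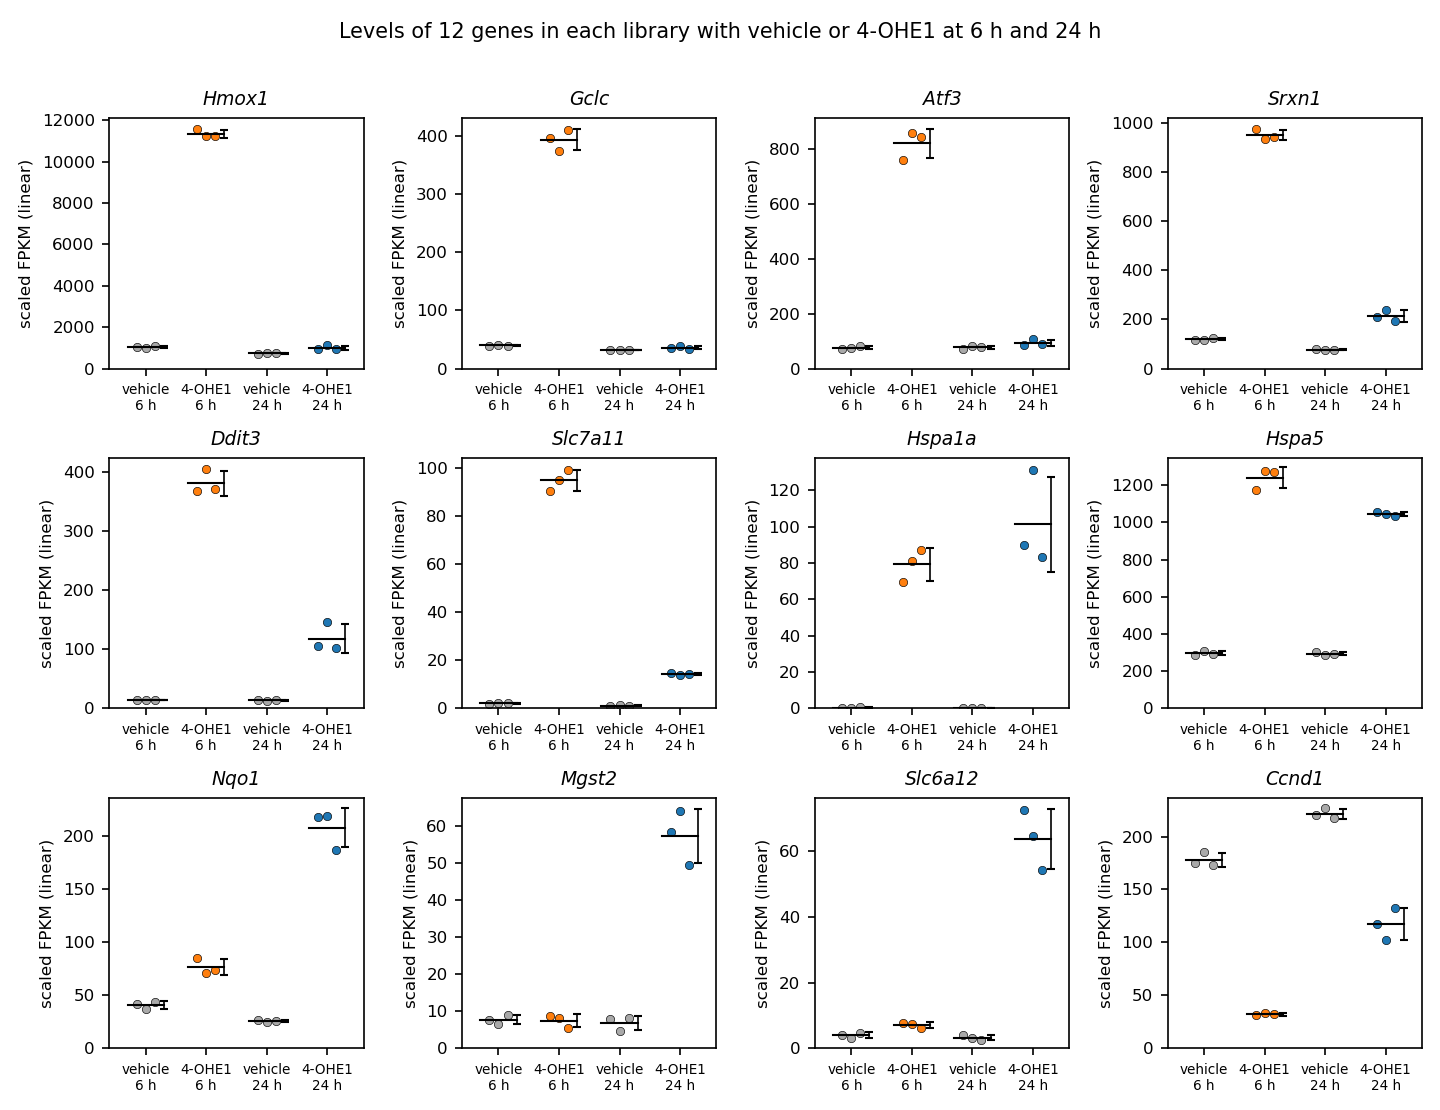
Scaled FPKM (linear y axes from 0) of 12 genes in each of the 12 libraries, 3 per group, with the mean as a line and the SD as a bar. Hmox1, Gclc and Atf3 with 4-OHE1 at 24 h were near vehicle, Srxn1, Ddit3 and Slc7a11 lay between, Hspa1a and Hspa5 were high at both times, and Nqo1, Mgst2 and Slc6a12 were highest at 24 h.

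Heme and iron genes were mostly lower at 24 h than at 6 h with scaling, and less clearly so without it. Hmox1, heme oxygenase 1, which cleaves heme and is a target of NRF2 and of BACH1, stood at 11576, 11220.2 and 11243 FPKM at 6 h and at 922, 1117 and 952 at 24 h. Vehicle libraries held 1039.9 ± 59.9 and 743 ± 27.1, so that the 24 h libraries with 4-OHE1 were near vehicle cells at 6 h and above vehicle cells at 24 h. The change was -3.48, SE 0.08, adjusted p = 1.01e-07, an 11.4-fold ratio of the means, beside -0.49 with vehicle, and the difference between the time changes was -3.03 (adjusted p = 7.71e-10). Hmox1 alone took 1.80% to 1.89% of the reads in genes at 6 h and 0.18% to 0.22% at 24 h. Of 19 tested genes of heme and iron handling (22 listed), 3 were higher and 12 lower, with a median of -0.36, and 5 and 7 without scaling. Against vehicle, 11 were higher and 3 lower at 6 h (11 and 6 without scaling). At 24 h, 8 were higher and 4 lower (9 and 4 without scaling). The exporter of iron, Slc40a1, fell from 59.8 ± 3.94 to 14.1 ± 0.837 FPKM (-2.02) although it rose with vehicle (0.55). Fth1, ferritin heavy chain, fell by 0.55 to the level of vehicle, at 12673, 13524 and 12308 FPKM. The transferrin receptor Tfrc fell by 1.37 and was below vehicle at 24 h (-1.26), whereas at 6 h it was not called (-0.09, adjusted p = 0.57). The higher members included Hmox2, the constitutive heme oxygenase, and Slc25a37, a mitochondrial iron importer, which rose by 0.55 and 0.88 from below vehicle at 6 h. Blvrb, a biliverdin reductase, gave -0.01 (adjusted p = 0.945) at 1.48 above vehicle at 6 h and 1.71 at 24 h.

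Promoter windows of 300 bases, 250 before and 50 after the start, came from RefSeq on GRCm38.p6 and covered 8035 of the tested genes. The core of the antioxidant response element, TGACNNNGC on either strand, stood in 6 of 14 glutathione genes with a window (42.9%) and 10 of 27 quinone and thioredoxin genes (37.0%), and in 17.4% of all genes with a window. The 250 bases before the start of a member that fell, Gclm (chr3:122245307-122245556, plus strand), and of a member that rose, Mgst1 (chr6:138140277-138140526, plus strand), are shown because both hold the core. The match is in capitals, read on the gene's strand 5′ to 3′, so the element reads in reverse complement in both.
Gclm: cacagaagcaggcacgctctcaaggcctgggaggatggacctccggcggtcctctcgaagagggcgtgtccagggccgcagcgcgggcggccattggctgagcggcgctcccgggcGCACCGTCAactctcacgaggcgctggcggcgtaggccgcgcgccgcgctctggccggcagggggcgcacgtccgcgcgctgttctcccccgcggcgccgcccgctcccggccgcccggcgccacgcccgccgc
Mgst1: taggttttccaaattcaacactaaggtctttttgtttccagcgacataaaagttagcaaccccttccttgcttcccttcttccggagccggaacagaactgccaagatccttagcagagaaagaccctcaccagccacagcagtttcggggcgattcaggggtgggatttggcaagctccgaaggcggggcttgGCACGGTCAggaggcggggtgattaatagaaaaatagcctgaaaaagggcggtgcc
The matched 9 bases began 134 and 56 bases before the start.

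The integrated stress response was mostly early, and part of it persisted. Of 23 tested regulators and death factors (27 listed), 5 were higher and 16 lower at 24 h (6 and 16 without scaling), with a median of -0.67. Of 35 tested amino acid genes (37 listed), 3 were higher and 29 lower (4 and 24 without scaling), with a median of -0.75. Against vehicle, 21 of 23 regulators were higher and 1 lower at 6 h, and 18 were higher and 2 lower at 24 h.

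Atf3, an early stress repressor, had FPKM of 759.8, 859 and 842 at 6 h and 85.4, 106 and 88.8 at 24 h, with vehicle at 75.8 ± 4.50 and 77.2 ± 6.74. It fell nearly to vehicle (-3.10, SE 0.09, adjusted p = 1.71e-07). Ddit3, which encodes the pro-apoptotic factor CHOP, stood at 367, 405 and 371 and later at 106, 146 and 102, against 13.8 ± 0.307 and 13.7 ± 0.729 with vehicle. CHOP messenger thus fell (-1.68, adjusted p = 1.06e-05) but remained 3.04 above vehicle. Ppp1r15a, the GADD34 subunit that directs removal of the phosphate from eIF2 alpha, went from 300.3, 338 and 323 to 69.01, 92.1 and 64.1 FPKM, with vehicle at 7.24 ± 0.407 and 8.52 ± 0.480. Its change was -2.07, SE 0.12, adjusted p = 3.18e-06. Trib3, an inhibitor of ATF4 and AKT, fell by 1.21 and was 2.94 above vehicle at 24 h, and Chac1, which degrades glutathione, fell by 1.36 and was 1.51 above. Atf4 itself fell by 1.02, from 559 ± 13.9 to 272 ± 34.02 FPKM, and Sesn2, a repressor of mTORC1, by 1.49. Gdf15, a secreted stress factor, fell by 2.17 with 4-OHE1, whereas it rose by 1.14 with vehicle. The BH3-only death factor Bbc3 and the ATF family member Jdp2 rose, by 0.46 and 0.75. The rise of Bbc3 was not called as different from the time change of vehicle (0.16, adjusted p = 0.49).

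Of the 35 amino acid genes, 31 were higher than vehicle and 1 lower at 6 h, and 23 were higher and 5 lower at 24 h. Asns, asparagine synthetase, was at 187, 190.1 and 187 FPKM at 6 h and 84.02, 74.2 and 76.7 at 24 h, with vehicle at 58.00 ± 2.19 and 52.3 ± 2.62. It had fallen by 1.23 (adjusted p = 1.01e-06) and was 0.58 above vehicle. Psat1, of serine synthesis, fell by 1.73 and ended below vehicle (-0.73, adjusted p = 1.57e-07). The amino acid transporters Slc7a5, Slc38a2, Slc1a4 and Slc7a1 fell by 1.86, 1.84, 1.71 and 1.58. A pair of transporters kept nearly the early level. Slc3a2, the heavy chain that carries Slc7a11 and Slc7a5 to the membrane, stood at 793, 826 and 801 FPKM and then at 703, 741 and 640.3, with vehicle at 117 ± 4.90 and 128 ± 2.01. Its fall of 0.19 (adjusted p = 0.0284) was 0.03 without scaling. Slc6a9, a glycine transporter, gave -0.14 (adjusted p = 0.245) and was 2.57 above vehicle at 6 h and 2.84 at 24 h.

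The C/EBP-ATF response element, TGATGNAA on either strand, was found in 9 of 25 amino acid genes with a window (36.0%), in 6 of 20 regulators (30.0%) and in 2.71% of all genes with a window. The promoters of Chac1 (chr2:119350992-119351241, plus strand), Atf3 (chr1:191183334-191183583, minus strand) and Asns (chr6:7693210-7693459, minus strand) are shown as members that hold it and that fell by different amounts. Capitals mark the match on the gene's strand, in reverse complement in the first 2.
Chac1: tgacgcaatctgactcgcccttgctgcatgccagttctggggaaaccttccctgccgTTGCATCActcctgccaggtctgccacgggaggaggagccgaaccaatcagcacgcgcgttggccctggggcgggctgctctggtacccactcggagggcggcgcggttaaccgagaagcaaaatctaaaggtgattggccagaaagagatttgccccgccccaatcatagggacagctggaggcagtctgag
Atf3: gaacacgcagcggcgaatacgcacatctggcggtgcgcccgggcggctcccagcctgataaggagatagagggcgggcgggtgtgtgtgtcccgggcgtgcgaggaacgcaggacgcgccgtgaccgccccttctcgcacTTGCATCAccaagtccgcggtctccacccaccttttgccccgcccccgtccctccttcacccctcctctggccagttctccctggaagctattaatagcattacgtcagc
Asns: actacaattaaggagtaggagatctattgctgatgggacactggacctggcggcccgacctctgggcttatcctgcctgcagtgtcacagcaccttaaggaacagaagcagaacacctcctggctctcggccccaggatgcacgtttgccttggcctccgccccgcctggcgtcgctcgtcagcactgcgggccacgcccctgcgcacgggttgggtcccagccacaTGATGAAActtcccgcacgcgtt
The match began 193, 110 and 23 bases before the start.

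Cytosolic chaperones fell as a list while the inducible HSP70 genes stayed high. Of 35 tested heat shock and chaperone genes (37 listed), 3 were higher and 26 lower at 24 h (5 and 21 without scaling), with a median of -0.50. Against vehicle, 32 were higher and 0 lower at 6 h (21 and 3 without scaling), and 20 higher and 4 lower at 24 h. Hspa1a, an inducible HSP70, had FPKM of 69.5, 81.3 and 87.3 at 6 h and 89.8, 131 and 83.1 at 24 h, against 0.467 ± 0.236 and 0.245 ± 0.0144 with vehicle. The groups overlapped, and the change of 0.36 did not pass the test (adjusted p = 0.0864), but it did without scaling (0.57, adjusted p = 0.016). Hspa1b, its near-identical neighbour, gave 58.9, 66.4 and 67.6 and 76.2, 105 and 72.5 and rose by 0.41 (adjusted p = 0.0263). Reads may be split between these copies by the counting, so the pair is best read together. At 24 h they were 7.07 and 6.71 above vehicle on the log2 scale.

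Other HSF1 targets were early. Hspa8, the constitutive HSC70, fell from 299, 305 and 262 FPKM to 96.7, 117 and 92.98 (-1.47, adjusted p = 5.52e-06), and at 24 h it was not called against vehicle (0.10, adjusted p = 0.309). The HSP70 cochaperone Dnajb4 fell by 2.18, Bag3 by 1.14, Dnajb1 by 0.92 and the exchange factor Hsph1 by 0.91. At 24 h Hsph1 was 1.63 above vehicle, Bag3 0.68, Dnajb4 0.41 and Dnajb1 0.26. Hspa4l and the mitochondrial chaperone Trap1 rose by 0.38 and 0.30. The heat shock element, searched as GAA, TTC and GAA with 2 free bases between each pair, on either strand, stood in 5 of 28 members with a window (17.9%) and in 0.597% of all genes.

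ER chaperones were mostly higher at 24 h than at 6 h, and most were above vehicle at both times. Of 27 tested genes (28 listed), 18 were higher and 6 lower at 24 h (19 and 3 without scaling), with a median of 0.34. Against vehicle, 21 were higher and 1 lower at 6 h (14 and 4 without scaling), and 22 and 0 at 24 h (23 and 0 without scaling). The list's summed FPKM was 4045 to 4155 at 6 h and 4485 to 4590 at 24 h, against 2355 to 2429 and 2406 to 2433 with vehicle. With vehicle 1 member rose and 0 fell between the times. Pdia4, a disulfide isomerase, stood at 49.7, 43.9 and 43.1 FPKM at 6 h and 89.1, 89.5 and 88.8 at 24 h, with vehicle at 41.7 ± 0.598 and 43.2 ± 0.926. It was not called against vehicle at 6 h (0.12, adjusted p = 0.0511) and its time change was 0.99, SE 0.07, adjusted p = 5.37e-06. Sdf2l1 rose by 1.02, Creld2 by 0.82, the HSP70-like chaperone Hyou1 by 0.80 and the isomerase Pdia6 by 0.70.

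The 6 that fell included members with a high early level. Hspa5, the ER chaperone BiP, stood at 1176, 1276 and 1269.7 FPKM at 6 h and 1054, 1044 and 1033 at 24 h, with vehicle at 297 ± 11.3 and 294 ± 8.18. The 24 h libraries lay below the 6 h libraries by little, at -0.22 on the log2 scale (adjusted p = 0.00652), which was -0.00 without scaling, and both were far above vehicle (2.06 and 1.83). Ero1l, the ER oxidase, fell by 1.38 and the cochaperone Dnajb9 by 0.97. They remained 0.76 and 1.32 above vehicle.

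The ER stress response element, searched as CCAAT and CCACG with 9 free bases between them, on either strand, was in 8 of 21 members with a window (38.1%) and in 0.124% of all genes. Promoters with it, of the late risers Creld2 (chr15:88819396-88819645, plus strand) and Pdia6 (chr12:17266339-17266588, plus strand) and of Hspa5 (chr2:34771840-34772089, plus strand), are shown with the match in capitals. It is in reverse complement in Creld2.
Creld2: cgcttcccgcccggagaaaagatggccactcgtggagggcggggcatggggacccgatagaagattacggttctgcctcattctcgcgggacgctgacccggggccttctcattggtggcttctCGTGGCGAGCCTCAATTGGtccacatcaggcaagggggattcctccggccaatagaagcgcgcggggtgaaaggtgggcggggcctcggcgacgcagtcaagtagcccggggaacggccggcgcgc
Pdia6: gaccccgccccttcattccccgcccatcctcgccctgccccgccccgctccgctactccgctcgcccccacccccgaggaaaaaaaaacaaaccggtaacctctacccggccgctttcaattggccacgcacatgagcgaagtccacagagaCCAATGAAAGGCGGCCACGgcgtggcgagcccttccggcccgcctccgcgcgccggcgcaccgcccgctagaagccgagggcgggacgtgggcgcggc
Hspa5: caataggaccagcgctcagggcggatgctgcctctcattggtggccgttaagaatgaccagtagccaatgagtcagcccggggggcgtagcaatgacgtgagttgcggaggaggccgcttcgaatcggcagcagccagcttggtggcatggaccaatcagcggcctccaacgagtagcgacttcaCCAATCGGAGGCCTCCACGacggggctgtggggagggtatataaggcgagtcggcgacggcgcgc
The match began 126, 98 and 65 bases before the start.

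Protein disposal also changed with time. All 33 tested proteasome subunits and assembly factors were higher than vehicle at 6 h (30 without scaling) and 33 at 24 h (33 without scaling). From 6 h to 24 h, 1 rose and 14 fell, with a median of -0.11, and 7 and 10 without scaling. Among these genes, Psmd11 and Psmd5 both fell by 0.76, and Psmd8 by 0.65. The 1 that rose, the maturation factor Pomp (0.19, adjusted p = 0.0454), had overlapping groups. Of 36 tested autophagy and lysosome genes (37 listed), 3 were higher and 27 lower (7 and 23 without scaling), with a median of -0.53. With vehicle 13 of the 36 rose and 3 fell. Sqstm1, the autophagy receptor p62 and an NRF2 target, stood at 4464, 4454 and 4551 FPKM at 6 h and 1043, 1216 and 1009.5 at 24 h, with vehicle at 376 ± 14.00 and 333 ± 5.15. It fell by 2.02 (adjusted p = 4.05e-07) and stayed 1.70 above vehicle. The proton pump subunit Atp6v0d2 fell by 2.01, the autophagy kinase Ulk1 by 1.48, the lysosomal galactosidase Gla by 1.46 and the autophagosome protein Gabarapl1 by 1.41. Lamp1, of the lysosomal membrane, crossed from above vehicle at 6 h (0.32) to below it at 24 h (-0.54).

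Immediate early genes had a median of -1.38, the lowest of the lists with more than 1 tested member. Of 27 tested (28 listed), 23 were lower and 3 higher at 24 h, and 22 and 3 without scaling. Egr2 stood at 15.9, 17.6 and 17.3 FPKM at 6 h and at 2.32, 2.36 and 1.83 at 24 h, with vehicle at 2.32 ± 0.661 and 2.27 ± 0.367. It was not called against vehicle at 24 h (-0.05, adjusted p = 0.817). Egr1 fell by 2.45, the MAP kinase phosphatases Dusp8 and Dusp2 by 2.27 and 2.22, Maff by 2.30 and the AP-1 component Fosl1 by 2.21. The exceptions were Klf2, Fos and Btg2, which rose by 1.34, 0.78 and 0.43. Fos had been below vehicle at 6 h (-1.07) and was above it at 24 h (0.42).

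Cytokine genes went both ways, with 6 higher and 9 lower of 17 tested (33 listed), and 6 and 8 without scaling. Tnf, the tumour necrosis factor gene, stood at 106, 125 and 117 FPKM at 6 h and 21.4, 25.5 and 19.6 at 24 h, with vehicle at 17.4 ± 0.956 and 17.5 ± 0.887. It fell by 2.33 (adjusted p = 7.18e-07). Il1rn, the interleukin 1 receptor antagonist, fell by 2.72, the neutrophil chemokine Cxcl2 by 1.90, the prostaglandin synthase Ptgs2 by 1.63 and Il10 by 1.64. Ccl3 and Ccl4 fell by 1.32 and 1.42 with 4-OHE1 and rose by 0.93 and 1.28 with vehicle. The monocyte chemokines Ccl7 and Ccl2 rose by 1.62 and 1.19, from -1.44 and -1.57 relative to vehicle at 6 h, and rose with vehicle as well (0.76 and 0.72).

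Hypoxia and glycolysis genes fell, with 26 of 32 tested lower and 1 higher at 24 h (24 and 4 without scaling) and a median of -0.80. Vegfa, the vascular growth factor, went from 58.2, 63.3 and 63.6 to 9.59, 12.1 and 9.54 FPKM, with vehicle at 7.23 ± 0.410 and 6.30 ± 0.431 (-2.49, adjusted p = 4.51e-07). Pfkfb3, which raises glycolytic flux, fell by 2.44 to a level not called against vehicle (-0.17, adjusted p = 0.0573). Adrenomedullin, Adm, fell by 2.24, the glucose transporter Slc2a1 by 1.87, and Bnip3 and the oxygen sensor Egln3, by 2.02 and 1.89, ended below vehicle (-0.66 and -0.85). Pfkfb4 rose by 0.77. Of 16 tested growth and repair factors (23 listed), 1 was higher and 11 lower (2 and 8 without scaling). Oncostatin M, Osm, fell by 2.20. Hbegf, an EGF receptor ligand, fell by 0.95 and was still 3.41 above vehicle. Pdgfb was the riser, from 9.09, 8.98 and 10.1 to 30.1, 29.5 and 28.7 FPKM, having been far below vehicle (40.7 ± 2.71) at 6 h.

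Cell cycle genes fell further at 24 h. Of 30 tested mitosis genes, 29 were lower and 0 higher than at 6 h (26 and 0 without scaling), with a median of -1.20, whereas with vehicle 27 rose and 0 fell. Relative to vehicle, 29 were lower at 6 h and 30 at 24 h, and the time change differed from that of vehicle in 30 of 30, each downwards. In bulk RNA, fewer cells of a kind and less RNA per cell cannot be told apart. Mki67, a proliferation marker, stood at 35.4, 32.1 and 34.2 FPKM at 6 h and 6.97, 6.13 and 9.03 at 24 h, with vehicle at 76.98 ± 3.47 and 94.5 ± 4.70. It fell by 2.11 (adjusted p = 3.25e-06), and the difference from the time change of vehicle was -2.44. Ccnb2, a mitotic cyclin, went from 17.98, 16.6 and 17.6 to 4.97, 3.06 and 4.80 (-1.90) while vehicle rose from 31.1 ± 1.81 to 59.4 ± 2.43. Nusap1, Birc5 and Prc1, of the spindle and midzone, fell by 2.14, 1.89 and 1.82. Of 32 replication genes, 27 were lower and 0 higher (24 and 1 without scaling), with a median of -0.97, and with vehicle 1 fell and 0 rose. Mcm5, of the replicative helicase, stood at 28.5, 31.9 and 31.05 and then 10.5, 10.2 and 11.2, with vehicle at 53.02 ± 3.05 and 50.8 ± 0.708 (-1.44). Mcm10 was not called against vehicle at 6 h (-0.00, adjusted p = 0.983) and fell by 2.01. Pola1 and Lig1 fell by 1.60 and 1.47. The E2F element TTTCCCGC stood in 6 of 26 replication genes with a window (23.1%) and in 2.48% of all genes.

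D cyclins, MYC family genes and kinase inhibitors went both ways, with 8 higher and 7 lower of 17 tested (9 and 6 without scaling). Ccnd1, a D cyclin of the G1 phase, stood at 31.1, 33.5 and 31.99 FPKM at 6 h and 118, 103 and 133 at 24 h, with vehicle at 178 ± 6.49 and 222 ± 4.84. It was the low group at 6 h and rose by 1.88 (SE 0.09, adjusted p = 1.2e-06), yet stayed below vehicle (-0.92). Ccnd3 rose by 1.70 to slightly above vehicle (0.20), and Mxd4, an antagonist of MYC, by 1.70. Of the inhibitors of cyclin-dependent kinases, Cdkn1c rose by 0.51 and was 3.30 above vehicle at 24 h, while Cdkn2b fell by 1.88 and Cdkn1a, which encodes p21, by 0.38.

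p53 targets also went both ways. Of 20 tested (23 listed), 12 were higher and 5 lower at 24 h (15 and 5 without scaling), with a median of 0.43. Phlda3, an AKT inhibitor, stood at 2.09, 2.60 and 1.90 and later at 14.5, 14.6 and 14.5 FPKM, with vehicle at 4.87 ± 0.411 and 10.3 ± 0.576. It rose by 2.51, more than the 1.01 of vehicle (difference 1.48, adjusted p = 1.56e-06). Sesn1 and Zmat3 rose by 1.35 and 1.27, both from below vehicle at 6 h. Against vehicle, 7 of the 20 were higher and 10 lower at 6 h (6 and 12 without scaling). At 24 h, 12 were higher and 3 lower, with and without scaling. With vehicle alone, 6 rose and 0 fell between the times. The 5 that fell included Plk2 (-3.03), Gadd45a (-2.03) and the p53 ligase Mdm2 (-1.17). Plk2 went from 491, 529.6 and 549 FPKM to 58.7, 66.9 and 61.04 and remained 1.12 above vehicle.

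**Figure D3:**
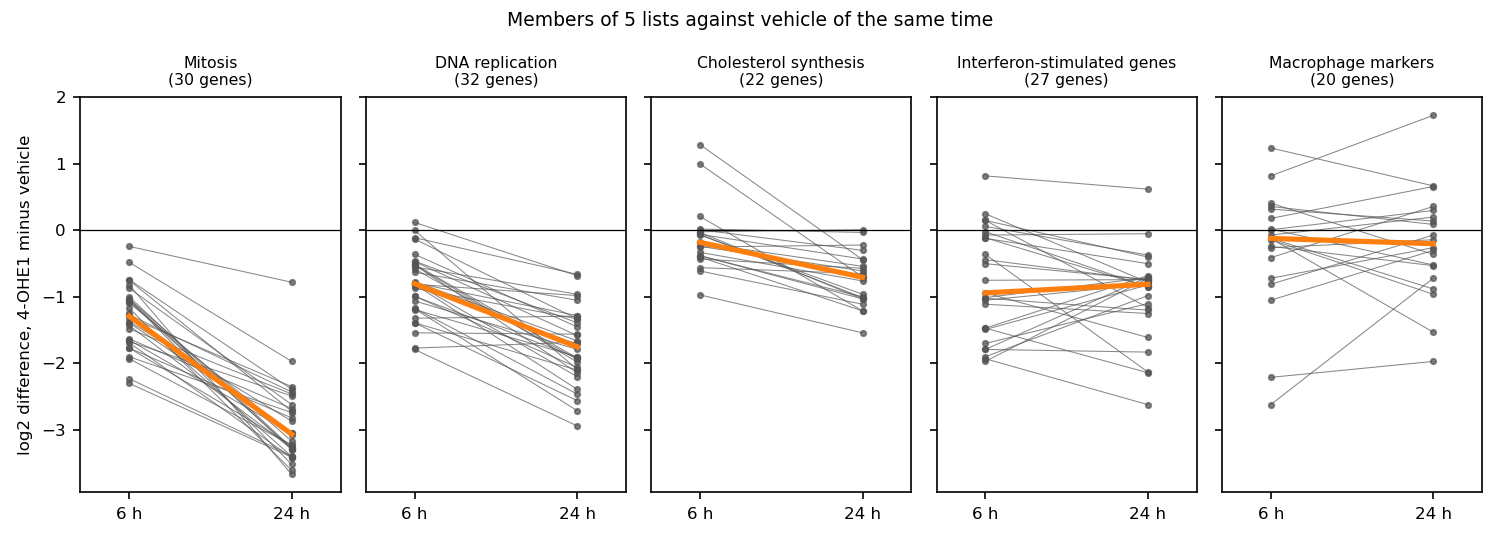
Log2 difference between 4-OHE1 and vehicle of the same time at 6 h and at 24 h, for the members of 5 lists tested in the time comparison. Thin lines are genes and the orange line is the median. Mitosis and replication genes were below vehicle at 6 h and lower still at 24 h, and 20 of 22 sterol synthesis genes were below vehicle at 24 h.

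Sterol synthesis genes were mostly lower at 24 h than at 6 h, and many were below vehicle at 6 h already. Of 22 tested genes (24 listed), 16 were lower and 0 higher at 24 h than at 6 h (13 and 1 without scaling), with a median of -0.48. With vehicle 1 rose and 0 fell. At 24 h, 20 of 22 were below vehicle and 0 above (19 and 0 without scaling). At 6 h, 12 were below and 3 above (17 and 2 without scaling). Insig1, the ER anchor of the sterol sensor, stood at 37.5, 35.9 and 37.3 FPKM at 6 h and 10.95, 10.98 and 11.6 at 24 h, with vehicle at 18.2 ± 0.929 and 18.5 ± 0.257. Its change was -1.65, adjusted p = 3.34e-07, with 1.00 relative to vehicle at 6 h and -0.70 at 24 h. Fdft1, squalene synthase, fell by 1.10 and Cyp51, a sterol demethylase, by 1.03. Among 13 targets of the oxysterol receptor LXR and related genes (16 listed), 7 were higher and 5 lower (7 and 4 without scaling). Abcg1, a cholesterol exporter, rose from 3.46, 3.63 and 3.35 to 15.9, 14.8 and 13.7 FPKM, with vehicle at 5.50 ± 0.184 and 5.50 ± 0.260, whereas Mylip, a ubiquitin ligase, fell by 1.57. Fabp4, a fatty acid carrier, fell from 140.4 ± 16.7 to 20.7 ± 3.88 (-2.71).

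Of 7 tested genes of MHC class II presentation (9 listed), 5 were lower and 2 higher at 24 h, with and without scaling, and with vehicle 4 fell and 0 rose. H2-Eb1, H2-Aa and H2-Ab1 fell by 1.86, 1.67 and 1.65 with 4-OHE1, beside -0.51, -0.70 and -0.67 with vehicle. Their differences between the time changes were -1.38, -1.01 and -1.01, all called. For the invariant chain Cd74 the fall of 1.00 was not called as different from vehicle (-0.23, adjusted p = 0.0759). Interferon-stimulated genes were below vehicle at both times, with 21 lower and 1 higher of 32 tested at 6 h, and 29 and 1 at 24 h. Between the times, 7 of 27 rose and 6 fell (9 and 5 without scaling). Ifi47 rose by 1.50, Parp14 by 1.10 and the RNA sensor Ifih1 by 0.85, each from a low level at 6 h, and Irf7, a master interferon regulator, fell by 1.65.

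Of 20 tested macrophage markers, 10 were higher and 5 lower at 24 h (12 and 4 without scaling). Tlr2, the lipopeptide receptor, stood at 3.05, 3.00 and 2.88 FPKM at 6 h and 14.01, 11.7 and 13.6 at 24 h, with vehicle at 20.9 ± 0.936 and 21.9 ± 1.93. It rose by 1.99 and stayed below vehicle (-0.72). Cd14, the LPS coreceptor, rose by 0.94, the macrophage factor Spi1 by 0.82 and the efferocytosis receptor Mertk by 0.87. The scavenger receptor Cd36 and the mannose receptor Mrc1 fell by 1.06 and 0.78, the latter beside a rise of 0.60 with vehicle. The fractalkine receptor Cx3cr1 was low at both times, at -2.21 and -1.97 relative to vehicle.

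Metal, osmolyte and estrogen genes also divided. Mt1 and Mt2, the abundant metallothioneins, fell by 1.46 and 1.01, and Mt2 was still 2.12 above vehicle. Mt3 rose by 1.20 to 2.79 ± 0.575 FPKM. The zinc exporter Slc30a1 fell by 1.95 and the importer Slc39a1 rose by 0.90. Slc6a12, the betaine transporter, went from 7.74, 7.52 and 6.10 FPKM to 72.4, 64.5 and 54.3, with vehicle at 4.04 ± 0.782 and 3.25 ± 0.665 (3.10, SE 0.12, adjusted p = 4.95e-07). Nfat5, the tonicity factor known to drive Slc6a12, fell over the same hours by 1.55, and Akr1b3, the sorbitol-forming reductase, rose by 0.53. The rise of Akr1b3 was not called as different from the time change of vehicle (0.25, adjusted p = 0.262). Among 10 tested estrogen, catechol and aryl hydrocarbon receptor genes (16 listed), 6 were higher and 3 lower (7 and 3 without scaling). The receptor Ahr and its target Tiparp fell by 1.65 and 1.89, and the repressor Ahrr rose by 1.69. Cyp1b1, an estrogen 4-hydroxylase, was near the detection range, at 0.221 ± 0.0380 FPKM at 6 h and 1.29 ± 0.298 at 24 h (1.29).

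Other deep falls were of genes outside the lists. Rasd2, a small G protein, fell by 3.71 from 11.5, 11.03 and 10.6 FPKM to 0.236, 0.465 and 0.375. Rgs1, a regulator of G protein signalling, fell by 3.65, from 719, 839 and 875 to 58.7, 61.03 and 68.8, the level of vehicle (56.2 ± 2.22). Gem, a GTP-binding protein nearly absent from vehicle libraries (0.104 ± 0.0961 FPKM), fell by 2.97. The Notch ligand Jag1 fell by 2.78, the adhesion protein Flrt3 by 2.79, the TWEAK receptor Tnfrsf12a by 2.75 and the calcineurin regulator Rcan1 by 2.74. Akap2 and Pakap, overlapping genes whose reads cannot be told apart, fell by 2.94 and 2.91.

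Late rises outside the lists began from different levels. Serinc2 was near vehicle at 6 h and rose above it (0.01, adjusted p = 0.972 at 6 h, 2.48 at 24 h). Fxyd2, a regulator of the sodium pump, was already 1.31 above vehicle at 6 h and reached 129, 148 and 96.00 FPKM at 24 h, where replicate 2 was the highest. Others were below vehicle at 6 h and rose to it or past it. Tifab stood at 1.46, 1.23 and 1.06 FPKM at 6 h and 13.8, 13.4 and 11.8 at 24 h, with vehicle at 8.22 ± 0.873 and 7.60 ± 0.126. The nuclear noncoding RNA Neat1 went from 28.3, 28.3 and 31.5 to 168, 224 and 173, with vehicle at 80.4 ± 12.2 and 78.97 ± 4.82. Alox5, the first enzyme of leukotriene synthesis, rose by 2.74, the receptor Trem1, which amplifies inflammatory signals, by 2.71, the retinoic acid receptor Rarg by 2.62, and Lrrc25 by 2.60. Themis2 rose by 2.55 to a level not called against vehicle (-0.15, adjusted p = 0.0614).

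**Figure D4:**
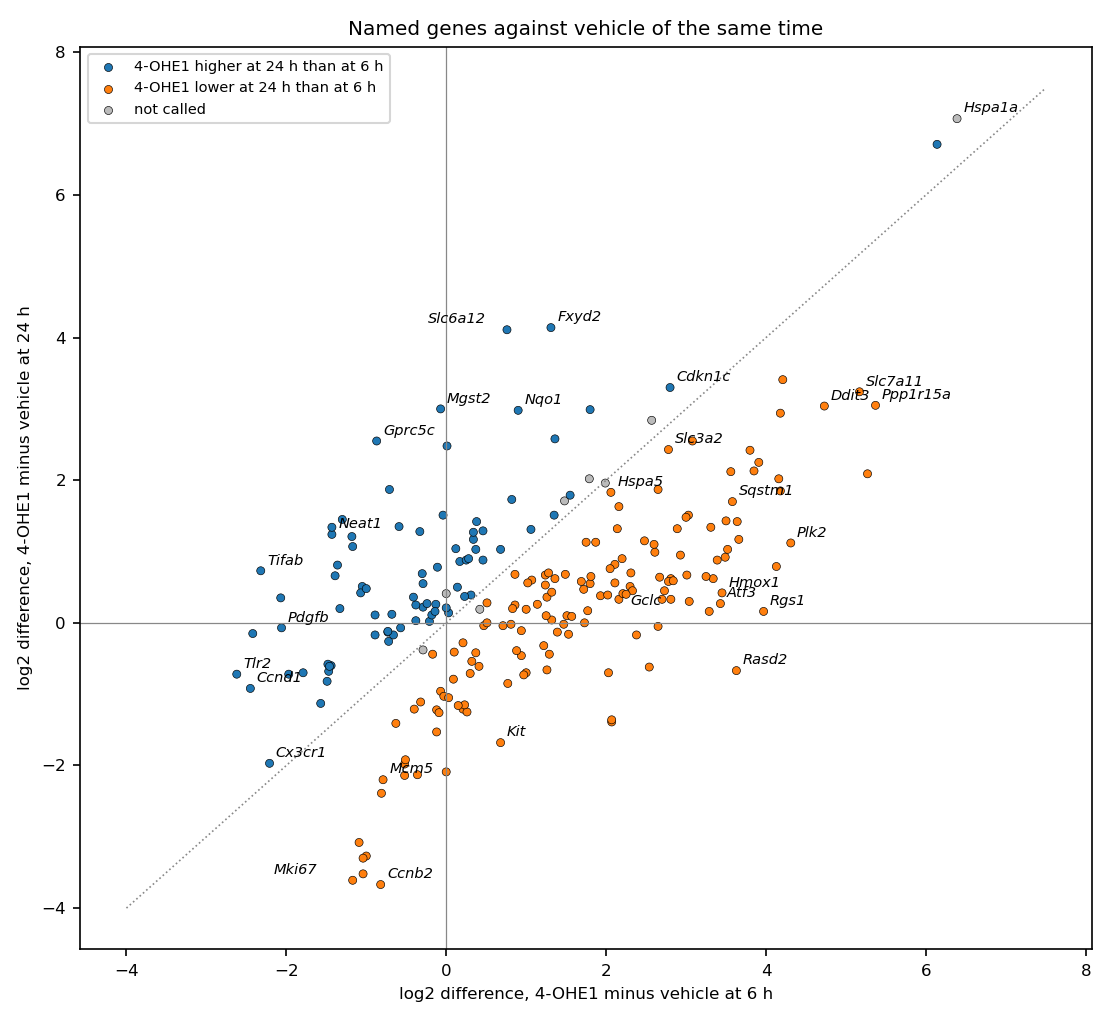
Log2 difference of 4-OHE1 from vehicle at 6 h (x axis) and at 24 h (y axis) for the genes chosen by the naming rule or named in the text. Points are genes, blue were higher and orange lower at 24 h than at 6 h with 4-OHE1, grey did not pass, and the dotted line marks equal differences. Rgs1 and Gclc lie at right near the x axis, Slc6a12 and Mgst2 at top near x = 0, and Hspa1a, which was not called, at top right.

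The genes raised or lowered at 6 h and at 24 h overlapped only in part. Against vehicle of the same time, which are comparisons with no library in common, 935 genes were at least 2-fold higher at 6 h (8.66%) and 361 at 24 h (3.34%), with 205 in both, or 21.9% of the 6 h list and 56.8% of the 24 h list. At least 2-fold lower were 670 genes at 6 h (6.20%) and 583 at 24 h (5.40%), with 221 in both, or 33.0% and 37.9%. Opposite at least 2-fold differences were found for 9 genes higher and 10 lower at 6 h. Without scaling the 4 lists held 685 and 387 higher genes, with 190 in both, and 1053 and 553 lower genes, with 279 in both.

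With LPS present, many of the same time changes had another size or sign. With LPS plus 4-OHE1, 3264 genes were higher at 24 h than at 6 h and 3220 lower (32.1% and 31.6% of 10180). The time change differed from that of 4-OHE1 alone in 1250 genes upwards and 1557 downwards (11.6% and 14.5% of 10769), in a fit of 12 libraries with none shared between the arms. The LPS plus 4-OHE1 levels are on the scale of their own 6 libraries.

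Time changes of the NRF2 lists were mostly higher with LPS present, with 12 of 19 glutathione genes higher and 1 lower than with 4-OHE1 alone, and 16 of 29 quinone and thioredoxin genes higher and 4 lower. Slc7a11 was at 85.7 ± 21.3 FPKM at 6 h and 101 ± 8.86 at 24 h with LPS plus 4-OHE1, a change that was not called (0.27, adjusted p = 0.181) and that differed from the fall with 4-OHE1 alone by 2.91 (adjusted p = 1.04e-06). Gclc fell by 1.94 with both agents, less than with 4-OHE1 alone (difference 1.45, adjusted p = 4.7e-05). Gclm, Srxn1, Txnrd1, Nfe2l2 and Osgin1 also fell less, with differences of 0.90, 1.00, 1.01, 0.71 and 0.48, and Gss rose by 0.40 where it had fallen. For Sqstm1 and Bach1 the difference was not called (0.14, adjusted p = 0.45, and 0.22, adjusted p = 0.191), and Mafk fell more (-0.38, adjusted p = 0.0311). Hmox1 fell by 2.90, a smaller difference (0.57, adjusted p = 0.0117). Nqo1 rose more, by 2.40 (difference 0.92). For Atf3 and Ddit3 the difference was not called (0.16, adjusted p = 0.462, and 0.09, adjusted p = 0.808), whereas Asns, Chac1 and Trib3 fell more with LPS present (-0.69, -0.88 and -0.75). Hspa1a fell by 0.87, a difference of -1.24 (adjusted p = 0.0122), and Hspa5 by 0.81 (difference -0.60).

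Differences were also found for genes that macrophages switch on with LPS. Tnf fell by 0.50 with both agents, from 632 ± 59.5 to 445 ± 40.2 FPKM (difference 1.82), and Cxcl2 was not called (-0.12, adjusted p = 0.578, difference 1.76). Rsad2 fell by 5.29 and Ifih1 by 3.18 (differences -4.48 and -4.03). S100a8, a neutrophil and monocyte alarmin, rose by 5.43 with both agents and by 1.17 with 4-OHE1 alone. Ccnd1 fell by 1.68 with both agents where it rose with 4-OHE1 alone (difference -3.56, adjusted p = 6.98e-07), while for Ccnd3 the difference was not called (-0.20, adjusted p = 0.216). Tlr2 was not called with both agents (-0.10, adjusted p = 0.487, difference -2.07), and Mmp12, macrophage elastase, rose by 1.28 where it had fallen by 0.65. The late genes Mgst2, Neat1 and Abcg1 gave differences that were not called (0.56, 0.16 and -0.03, adjusted p = 0.282, 0.638 and 0.904).

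**Figure D5:**
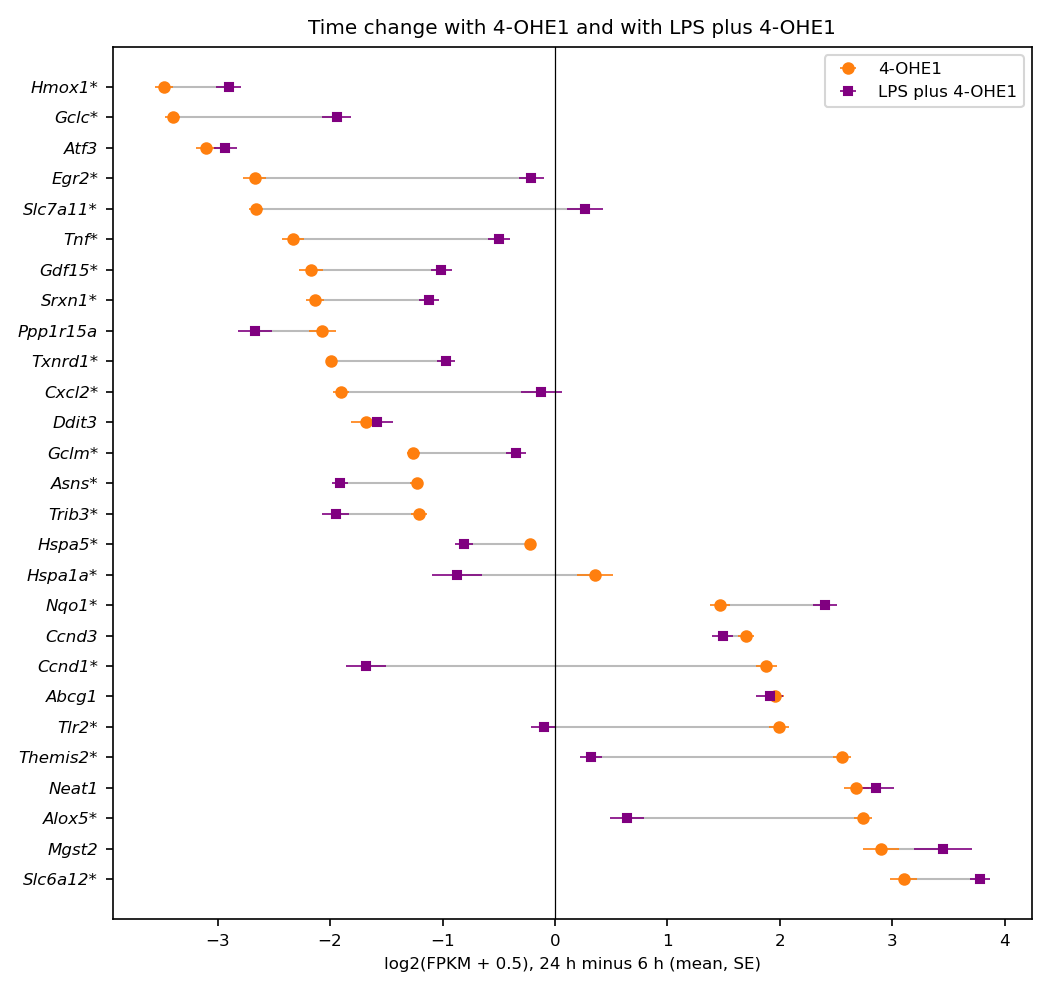
Log2 change from 6 h to 24 h with 4-OHE1 (circles) and with LPS plus 4-OHE1 (squares) for 27 genes, with the SE as bars. A star marks genes whose 2 time changes differed at an adjusted p under 0.05. Slc7a11, Egr2 and Tnf fell with 4-OHE1 and moved by 0.50 or less with both agents, and Ccnd1 changed sign.

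The 24 h replicates were not alike in several lists. Replicate 2 was the highest of the 3 in 40.1% of all tested genes. That share was 77.8% and 72.4% in the NRF2 lists, 73.9% in the ATF4 regulators, 75.8% in the proteasome and 74.1% in the immediate early genes, and among lists other than stress genes it was 87.1% in respiratory chain subunits and 71.4% in MHC class II. It was 34.3% in the ATF4 amino acid genes and 37.0% in the ER chaperones, and 3.33% in the mitosis and 9.38% in the replication genes. Its part in these results was not tested beyond leaving it out. Without it, the NRF2 lists held 7 and 8, and 5 and 18, higher and lower genes, the ATF4 regulators 5 and 16, the proteasome 0 and 15, the immediate early genes 3 and 24, mitosis 0 and 30 and replication 0 and 26.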

How the data were processed

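RNA sequencing libraries of mouse bone marrow-derived macrophages in 8 groups of 3 were available, and those with 4-OHE1, with vehicle and with LPS plus 4-OHE1 at 6 h and 24 h were used here. The values are FPKM, which the authors made with HOMER per the file headers, in a table for each time. The submitters' processing notes name mm10 as the mouse build and STAR, HOMER, edgeR and DESeq2 as tools, and their versions are not given in the sources used here. The authors' deposited tables of 4-OHE1 against vehicle give a log2 fold change and an adjusted p-value for each gene per the file headers, and none of these is printed. The labels give 1 concentration both for the 4-OHE1 stock and for the dose, so no dose is printed.

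FPKM is set within each library. Depth came from the headers of the authors' comparisons of 4-OHE1 with vehicle. With it and the transcript length, all of the values checked (100%) came out as whole reads, within 0.1 read. Values above 0 were checked where the rounding of FPKM amounts to less than 0.1 read. The total was 8127155 to 13339193 reads in the 12 vehicle and 4-OHE1 libraries. The check of whole reads and the comparison of replicates cover these libraries only. No pair of replicates agreed within sampling noise, with a chi-square of 1.54 to 9.38 for each degree of freedom, and each was counted. Tables of the times were joined by symbol and transcript, and the libraries of each fit were rescaled together by the median of ratios. limma 3.58.1 in R 4.3.3, with a trended empirical Bayes variance, was fitted to log2(scaled FPKM + 0.5) for genes that reached 1 FPKM in 3 or more libraries, and p-values were adjusted by Benjamini-Hochberg over all tested genes. A fold change on this scale understates the change of low genes. The method was tested on simulated data with the same dispersion for all genes. The fit of 24 h against 6 h with 4-OHE1 recovered 83.6% of 1.5-fold and 97% of 2-fold changes. The fit of the difference from vehicle recovered 57.6% and 90.6%. A difference that was not called is thus not shown to be absent. The unit is FPKM, so no count model served for the values printed, and limma voom on the recovered reads called 3244 genes higher and 3397 lower.

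The gene lists and members were chosen with earlier results of these data known. The naming rule took benchmark genes, the largest rises and falls among called genes whose group means reached 5 FPKM in 1 or more groups and whose times did not overlap, the largest differences from the time change of vehicle, and the called members with the largest change in each list. Predicted, small RNA and histone genes were left out of it. In the text, 28 genes stand outside this rule and were chosen after their values were seen, from Bach1 and Bbc3 among the stress genes to Klf2, Fos and Ccl2 among the others. The alternatives were other pseudocounts, scalings, filters, variance models and fits, a replicate block and leaving out each library. The difference between the time changes with and without LPS, the alternatives for LPS plus 4-OHE1, and the counts of list members without scaling or without replicate 2 were chosen after seeing the data.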

Additional observations from a re-analysis of the deposited data

Results flagged for a closer look

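For 24 of the genes named, the time change was called with 4-OHE1 and with vehicle in opposite directions, and the difference between both changes passed its own test. Genes that the naming rule took for a large called difference had to pass that test, so it is no support for them. Calls with vehicle were unstable when a library was left out. The share of all tested genes with opposite calls was not counted. The values below are the difference between the time changes on the log2 scale, 4-OHE1 minus vehicle. They come from limma over 12 libraries, with adjusted p of at most 2.38e-05. Mitotic genes fell with 4-OHE1 and rose with vehicle, with -2.85 for Ccnb2, -2.48 for Nusap1, -2.44 for Mki67, -2.27 for Birc5 and -2.26 for Prc1. The stress genes Gdf15, Sesn2, Mt2, Atf4 and Cdkn1a did the same, with -3.34, -2.07, -1.45, -1.30 and -0.90. Among genes of macrophages and inflammation, the values were -3.16 for Fabp4, -2.74 for Ccl4, -2.60 for Slc40a1, -2.28 for Ccl3 and -1.41 for Mrc1. The lysosomal genes Gla and Lamp1 gave -1.69 and -0.86, and the sterol gene Fdft1 gave -1.42. The overlapping genes Akap2 and Pakap gave -3.46 and -3.43. Rises with 4-OHE1 against falls with vehicle were found for Nqo1 (2.08), Pdgfb (1.99), Fos (1.50) and G6pdx (0.68).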

How the results depend on the processing

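Over the alternatives tried, those leaving out a library included, 2725 of 2761 values of the named genes in the comparison of 24 h with 6 h kept their direction and their side of the threshold, 20 lost the call, 6 gained it and 10 reversed. For the difference from vehicle these were 3751 of 3822, 49, 17 and 5. Reversals were of small changes. Without scaling, Blvrb was at 0.20, Prdx1 at 0.12, Slc6a9 at 0.07 and Slc3a2 at 0.03, and with upper quartile scaling Blvrb was at 0.13 and Prdx1 at 0.05. Leaving out 1 library put Blvrb at -0.16 to 0.12 and Ptgr1 at -0.02 to 0.14. In the difference from vehicle, Ptgr1 was at 0.23 without scaling, 0.14 with the upper quartile and -0.10 to 0.06 when 1 library was left out, and Cd74 and Hspa5 were both at 0.03 without scaling. Leaving out 1 library at a time gave 2637 to 2990 higher and 2904 to 3262 lower genes with 4-OHE1, 257 to 599 and 119 to 318 with vehicle, 2363 to 2554 and 2909 to 3143 for the difference, and 2545 to 3215 and 2720 to 3016 with LPS plus 4-OHE1. The vehicle count moved most, without each replicate of 24 h and without replicate 1 of 6 h. It was 348 and 187 when all 24 libraries shared a fit, and voom called 564 lower. Without scaling, higher and lower genes were 490 and 369 with vehicle (57.0% higher, 66.2% with scaling), 4423 and 1971 for the difference (69.2%, 45.6% with scaling) and 4728 and 2244 with LPS plus 4-OHE1 (67.8%, 50.3% with scaling); the cause was not tested. Counts of list members against vehicle without scaling were 23 higher and 2 lower at 6 h and 24 and 2 at 24 h for quinone and thioredoxin genes. They were 18 and 1, and 18 and 2, for ATF4 regulators, and 2 and 17, and 0 and 19, for sterol synthesis. Interferon-stimulated genes gave 1 and 25, and 1 and 29, and mitosis genes 0 and 30 at both times. Over all 10798 genes these counts were 2347 and 5165 at 6 h, and 3382 and 2745 at 24 h. The labels do not say whether replicates of the same number belong together. Correlations between their deviations at 6 h and 24 h were -0.0271, 0.00408 and 0.17 with 4-OHE1. With vehicle they were -0.00909, -0.00659 and 0.0229, and with LPS plus 4-OHE1 0.0832, 0.0297 and 0.0982. With 4-OHE1, pairs of unlike number gave -0.138 to 0.135. These values cannot settle whether the replicates were paired. With a replicate block the counts were 3320 and 3373 with 4-OHE1, 559 and 259 with vehicle, 2492 and 3028 for the difference, and 3306 and 3295 with LPS plus 4-OHE1. Depth limits genes under about 1 FPKM, where a library of this depth holds few reads.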

Other observations

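Plekhh2 had 3043 recovered reads in replicate 2 of 24 h with 4-OHE1, against 58 and 53 in the other replicates of that group. The ribosomal precursor Rn45s took 1.67% to 2.47% of the reads in genes at 6 h with 4-OHE1 and 2.24% to 2.68% at 24 h, against 2.64% to 3.18% with vehicle.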
